A study of Homo sapiens with 14 samples.

Results

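HERPUD1 and 9 other genes of protein folding and quality control in the endoplasmic reticulum (ER) were followed in HCT116 human colon carcinoma cells. The members were a chosen list of names, matched by symbol and not by any measured value: HERPUD1, HSPA5, HSP90B1, DNAJB9, XBP1, SDF2L1, PDIA4, CRELD2, EDEM1 and SEL1L, which make up 10 of the 78686 gene identifiers in each table. Each member matched 1 identifier, and all 10 passed the low-count filter in both sets of libraries. The question was whether Nutlin raised ER chaperone genes of the ATF6 and XBP1 kind or only genes of the integrated stress response.

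Misfolded protein in the ER is sensed by ATF6, by IRE1, which splices XBP1 mRNA, and by the kinase PERK. Cleaved ATF6 and spliced XBP1 switch on chaperones, disulfide isomerases and the machinery that exports misfolded proteins for degradation (ER-associated degradation, ERAD). PERK instead phosphorylates eIF2alpha, as do kinases that sense other stresses, and so favours translation of ATF4; this branch is the integrated stress response (ISR). HERPUD1 is known as a target of both arms, and XBP1 splicing cannot be read from gene-level counts.

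All groups carried osTIR1(F74G), the plant-derived receptor of the auxin-inducible degron, and SAF-A (gene HNRNPU, an RNA-binding nuclear protein) fused to mAID and Halo tags. The auxin analog 5-Ph-IAA brings the tagged protein to this receptor for destruction, and Nutlin blocks MDM2 and so stabilises p53. The Nutlin set held 5-Ph-IAA with Nutlin (the combination), Nutlin alone, 5-Ph-IAA alone and DMSO vehicle. The labels give 3 h for its treated libraries but do not tie that time to either drug, and they state no Nutlin dose. The time-course set held its own DMSO vehicle and 5-Ph-IAA for 3 h or for 12 h. Each of the 7 groups had 2 libraries, 14 in all, and the labels do not say that replicates were separate cultures, so p-values measure the spread between these libraries, which may be technical.

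Libraries of the Nutlin set held 12646787 to 17233327 expected counts and those of the time-course set 29578916 to 35140464, except 12 h replicate 2 with 3535163. The 2 Nutlin libraries stood apart from each other: their counts differed by a chi-square of 20.6 per degree of freedom, against 3.19 to 6.47 in the other groups of that set, where counting error alone would give about 1. In the time-course set it was 14.1 for the 2 vehicle libraries, 7.65 at 3 h and 4.67 at 12 h. All groups of a set share 1 estimate of the spread, so the Nutlin pair enters the spread behind every comparison of its set. With 1 library left out, its group holds 1 library, whose spread is not measured. Calls in such fits rest on the spread of the other groups. For single members, a call lost in such a fit is stated below. A call gained in such a fit is not stated, and only the log2 fold change is given. CDKN1A, the p53 target that encodes p21, was 2.66-fold higher with Nutlin than with vehicle (adjusted p = 3.16e-05, edgeR), and MDM2, another p53 target, did not pass (log2 fold change 0.54, adjusted p = 0.0661). HNRNPU mRNA had a log2 fold change of 0.31 at 12 h of 5-Ph-IAA (adjusted p = 0.00744), which does not check depletion of SAF-A, since the degron acts on the protein. In bulk RNA, fewer cells expressing a gene and less RNA per cell cannot be told apart.

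The promoter windows of 4 members are shown because they hold response elements known for the ER arm, and that of HERPUD1 also an element known for the ATF4 arm. The ER stress element (ERSE, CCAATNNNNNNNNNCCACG) and ERSE-II (ATTGGNCCACG) are known for ATF6, and TGATGNAA is the C/EBP-ATF composite element known for ATF4. The windows run from 250 bases before to 50 bases after the RefSeq transcription start (GRCh38.p14), are written 5′ to 3′ on the gene's strand, and carry the matched elements in capitals. They lie at chr16:56931892-56932191 on the + strand for HERPUD1, chr9:125241294-125241593 on the - strand for HSPA5, chr22:28800520-28800819 on the - strand for the upstream start of XBP1, and chr22:21642052-21642351 on the + strand for SDF2L1.
HERPUD1: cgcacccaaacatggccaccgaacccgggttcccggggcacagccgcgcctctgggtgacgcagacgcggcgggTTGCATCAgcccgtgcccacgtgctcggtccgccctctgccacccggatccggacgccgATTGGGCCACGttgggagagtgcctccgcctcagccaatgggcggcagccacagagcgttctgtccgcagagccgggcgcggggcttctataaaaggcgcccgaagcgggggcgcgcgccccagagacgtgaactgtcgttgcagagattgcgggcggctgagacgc
HSPA5: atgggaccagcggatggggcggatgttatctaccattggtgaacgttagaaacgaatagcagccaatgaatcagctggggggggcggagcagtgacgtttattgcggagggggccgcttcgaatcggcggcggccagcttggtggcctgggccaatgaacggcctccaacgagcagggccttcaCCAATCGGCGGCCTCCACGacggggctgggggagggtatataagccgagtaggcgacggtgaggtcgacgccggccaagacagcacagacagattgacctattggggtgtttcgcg
XBP1: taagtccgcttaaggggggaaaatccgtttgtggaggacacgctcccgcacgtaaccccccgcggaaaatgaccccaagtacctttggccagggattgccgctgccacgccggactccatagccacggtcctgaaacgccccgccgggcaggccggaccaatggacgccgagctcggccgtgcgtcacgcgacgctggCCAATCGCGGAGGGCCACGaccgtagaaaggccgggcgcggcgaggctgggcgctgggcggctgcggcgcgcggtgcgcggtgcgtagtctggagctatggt
SDF2L1: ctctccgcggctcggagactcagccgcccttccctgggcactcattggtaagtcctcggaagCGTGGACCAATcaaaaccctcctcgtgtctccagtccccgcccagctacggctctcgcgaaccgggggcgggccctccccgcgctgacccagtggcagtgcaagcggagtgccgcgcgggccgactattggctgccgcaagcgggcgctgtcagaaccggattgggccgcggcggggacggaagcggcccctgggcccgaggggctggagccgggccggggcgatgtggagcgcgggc
HERPUD1 was the 1 member of 10 with a match to the composite element, TTGCATCA on the opposite strand at -176 to -169. The same 8 letters stood on that strand in the windows of the ISR targets CHAC1, a glutathione-degrading enzyme, SLC1A4 and AARS1. On the gene's strand they stood in CEBPG, SLC1A5, NARS1 and JDP2. HERPUD1 also held an ERSE-II at -117 to -107. HSPA5 held an ERSE at -66 to -48 and XBP1 an ERSE at -52 to -34. SDF2L1 held an ERSE-II at -188 to -178, on the opposite strand.

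Both strands were searched in one window set of 35116 RefSeq promoters. ERSE matched 4 of 10 members (HSPA5, HSP90B1, XBP1 and CRELD2), 3 of 41 other ER targets, 0 of 39 ISR targets and 0.0769% of all promoters. ERSE-II matched 2 of 10 (HERPUD1 and SDF2L1), 1 of 41 other ER targets, 0 of 39 ISR targets and 0.0541% of all. The composite element matched 1 of 10 members, 12 of 39 ISR target genes with a window, 1 of 41 other ER targets and 3.62% of all promoters. The core of the XBP1-type unfolded protein response element (TGACGTGG) matched 0 of 10 members, 8 of 41 other ER targets, in HYOU1 overlapping an ERSE-II, and 0.729% of all. HSP90B1 held 2 ERSE copies, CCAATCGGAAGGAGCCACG at -194 to -176 and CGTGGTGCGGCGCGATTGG, which reads as ERSE on the opposite strand, at -89 to -71. CRELD2 held CGTGGCGAACTCGGATTGG, also on the opposite strand, at -80 to -62. A match describes the letters and does not show a factor's binding, and DNAJB9, PDIA4, EDEM1 and SEL1L had no match within these windows. The genes were listed as known stress targets and the elements are known for the same factors. The shares are therefore no independent evidence for either arm.

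Nutlin raised 3 of the 10 members, HERPUD1, DNAJB9 and XBP1, and lowered 0. Over all genes, 80 of 17251 passed an adjusted p of 0.05, or 0.464%, in the edgeR quasi-likelihood test that is used throughout. The members' median log2 fold change was 0.29, against -0.003 over all genes tested. Levels below are CPM, counts scaled to the TMM library size of their set, so they compare libraries and not genes.

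HERPUD1 (ENSG00000051108.15, chromosome 16, 56932048 to 56944863, + strand) encodes an ER membrane protein that organises the ERAD ubiquitin ligase complex. It stood at 167 and 173 CPM in Nutlin libraries, against 45.8 and 46.2 CPM in vehicle libraries. In cells given 5-Ph-IAA it stood at 167 and 166 CPM in combination libraries, against 45.4 and 47.6 CPM in 5-Ph-IAA libraries. All 4 libraries with Nutlin were high and close together, and all 4 without it were low. HERPUD1 was 3.70-fold higher with Nutlin than with vehicle (log2 fold change 1.89 ± 0.088 SE, adjusted p = 4.87e-06) and 3.58-fold higher with the combination than with 5-Ph-IAA (1.84 ± 0.088, adjusted p = 8.14e-06). Its call held when any 1 library was left out, with log2 fold changes of 1.86 to 1.92 without 5-Ph-IAA and 1.80 to 1.87 with it. A pair of sense-strand genes annotated inside HERPUD1 introns had medians of 25.0 and 5.24 expected counts over the 14 libraries, against 991 for HERPUD1; with Nutlin over vehicle they rose too (log2 fold changes 2.61 and 4.34, both adjusted p = 0.0268), and their part in the HERPUD1 count was not tested.

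**Figure D1:**
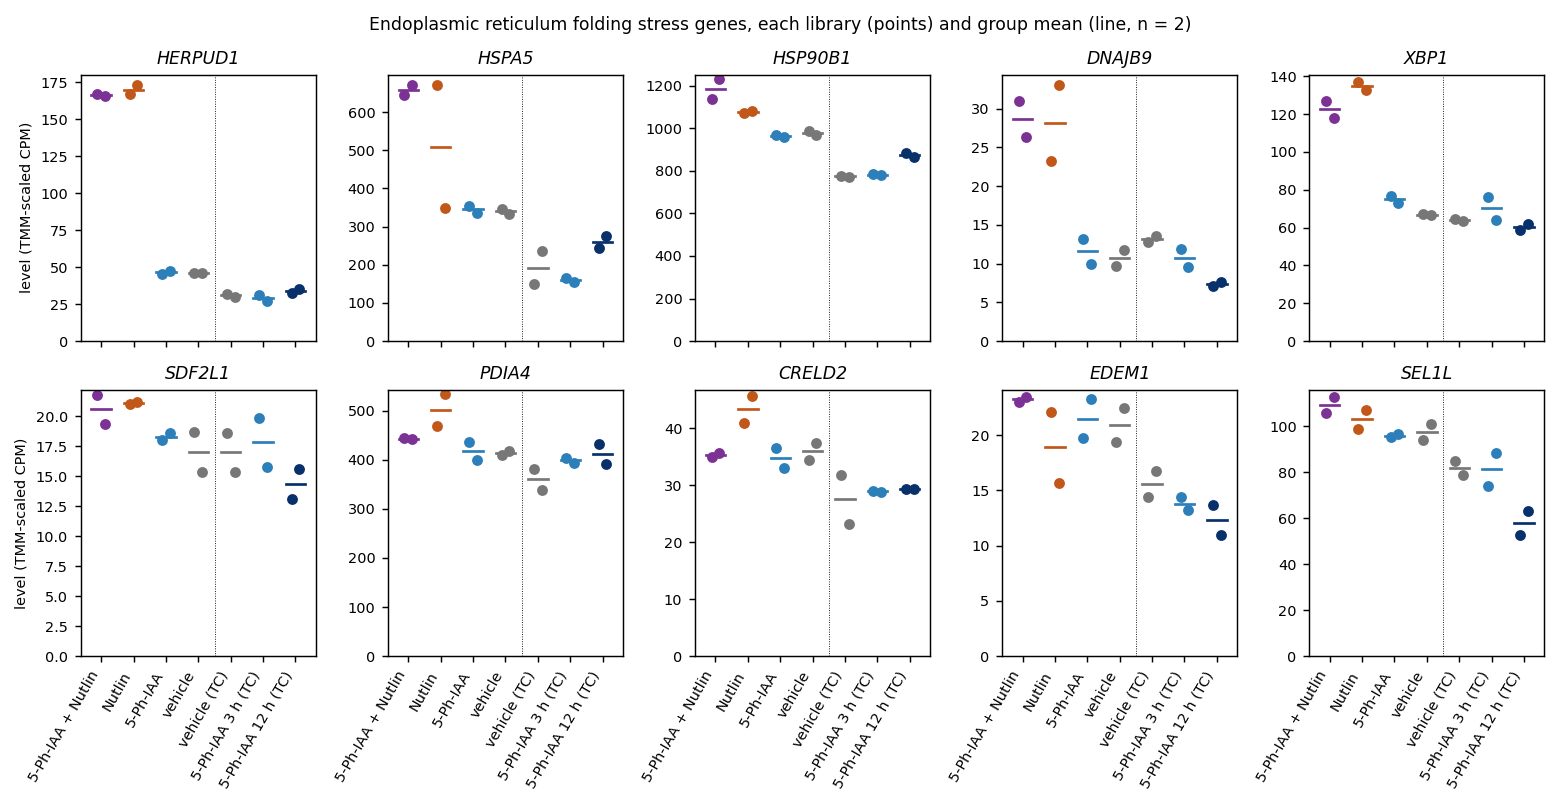
Level of each of the 10 members in every library, as TMM-scaled CPM on a linear axis from 0, with points for libraries and a line for the mean of each group (n = 2). Groups right of the dotted line, marked TC, are the time-course set, which was scaled separately. The 4 HERPUD1 points with Nutlin lie at 166 to 173 CPM, and the 2 HSPA5 points with Nutlin alone lie apart at 670 and 349 CPM.

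DNAJB9 (ENSG00000128590.5, chromosome 7, 108569568 to 108574850, + strand), a J-domain co-chaperone of HSPA5 that represses IRE1, stood at 23.2 and 33.1 CPM with Nutlin, against 9.71 and 11.7 CPM with vehicle. It stood at 31.0 and 26.3 CPM with the combination, against 13.2 and 9.98 CPM with 5-Ph-IAA. The 4 libraries with Nutlin did not overlap the 4 without it, though replicates differed more than for HERPUD1 at 131 to 544 expected counts per library. DNAJB9 was 2.64-fold higher with Nutlin than with vehicle (1.40 ± 0.21, adjusted p = 0.0195) and 2.46-fold higher with the combination than with 5-Ph-IAA (1.30 ± 0.20, adjusted p = 0.0291). The call was lost without vehicle replicate 1 (1.27, adjusted p = 0.319) or replicate 2 (1.54, adjusted p = 0.165) and with the spread taken from those 2 groups alone (1.40, adjusted p = 0.0924), and in the 5-Ph-IAA arm without any 1 of its 4 libraries (1.11 to 1.52, adjusted p from 0.134 to 0.456). PNPLA8 and THAP5 overlap DNAJB9 on the other strand, and the strand setting of the counting is not given in the sources used here; with Nutlin over vehicle they had log2 fold changes of 0.18 (adjusted p = 0.803) and 0.08 (adjusted p = 0.887).

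XBP1 (ENSG00000100219.17, chromosome 22, 28794555 to 28800597, - strand), the transcription factor activated by IRE1 splicing, stood at 137 and 133 CPM with Nutlin, against 67.3 and 66.4 CPM with vehicle. It stood at 127 and 118 CPM with the combination, against 76.8 and 73.0 CPM with 5-Ph-IAA. Groups with and without Nutlin did not overlap. XBP1 was 2.02-fold higher with Nutlin than with vehicle (1.01 ± 0.090, adjusted p = 0.000572), and it kept that call whichever library was left out (adjusted p at most 0.0255). In 5-Ph-IAA cells the fold was 1.63 (0.71 ± 0.089, adjusted p = 0.00731), and leaving out any 1 of the 4 libraries lost that call (0.64 to 0.77, adjusted p from 0.0666 to 0.26).

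HSPA5 (ENSG00000044574.9, chromosome 9, 125234853 to 125241330, - strand) encodes BiP, the central ER chaperone and a standard readout of ATF6. It stood at 670 and 349 CPM in Nutlin libraries, against 347 and 332 CPM in vehicle libraries. It stood at 645 and 672 CPM in combination libraries, against 355 and 335 CPM in 5-Ph-IAA libraries. In 3 of the 4 libraries with Nutlin HSPA5 was thus high, and Nutlin replicate 2 was level with the libraries without Nutlin. With Nutlin over vehicle its log2 fold change was 0.59 ± 0.23 and did not pass (95% interval 0.08 to 1.09, adjusted p = 0.408). Without Nutlin replicate 2 it was 0.98, and without Nutlin replicate 1 it was 0.05, each with 1 library in the Nutlin group. With the combination over 5-Ph-IAA it was 0.93 (0.43 to 1.44, adjusted p = 0.207), and it passed when those 2 groups alone set the spread (0.93, adjusted p = 1.1e-08). Without the low-count filter it passed in both arms (0.58, adjusted p = 4.22e-05, and 0.94, adjusted p = 1.53e-14). That fit estimates the spread with low-count genes included, and it called 405 and 270 genes against 80 and 67 with the filter. The part of this setting in the HSPA5 values was not tested.

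Replicate 2 was the lower Nutlin library in some other genes and the higher in others, named here after their values were seen. It was lower in the amino acid transporters SLC7A5 (325 and 193 CPM) and SLC7A1 (154 and 82.8 CPM). It was also lower in SYVN1, an ERAD ubiquitin ligase (20.8 and 10.8 CPM), CREB3L2 (34.9 and 15.6 CPM) and, among the members, EDEM1 (22.1 and 15.7 CPM). It was higher in the other ER targets OSTC (78.6 and 120 CPM) and HSPA13 (128 and 181 CPM) and, among the members, DNAJB9 (23.2 and 33.1 CPM). CDKN1A was high in both Nutlin libraries, at 537 and 519 CPM, against 200 and 197 CPM with vehicle. Whether 1 of the 2 Nutlin libraries differs in harvest, handling or labelling was not tested, so the HSPA5 values of 0.05, 0.59 and 0.98 cannot be ranked by how well they represent Nutlin.

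HSP90B1 and CRELD2, which also hold an ERSE, were not lower in replicate 2. XBP1, which holds an ERSE too, was slightly lower there, at 133 CPM against 137 CPM in replicate 1. HSP90B1 (GRP94, the ER HSP90 chaperone) stood at 1070 and 1080 CPM with Nutlin, against 988 and 970 CPM with vehicle. CRELD2, an ER-resident protein induced by ER stress, stood at 41.0 and 45.7 CPM with Nutlin, against 34.5 and 37.5 CPM with vehicle. For both genes the 2 Nutlin libraries lay above both vehicle libraries, and neither passed: the log2 fold change of HSP90B1 was 0.14 (-0.05 to 0.32, adjusted p = 0.601) and that of CRELD2 0.27 (0.03 to 0.52, adjusted p = 0.423). Genes on the other strand overlap both, UQCC6 at HSP90B1 (-0.06, adjusted p = 0.911) and ALG12 at CRELD2 (0.18, adjusted p = 0.806).

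The remaining 4 members did not pass either with all libraries of the set. SDF2L1, a partner of ER J-domain proteins, stood at 21.0 and 21.2 CPM with Nutlin, against 18.7 and 15.4 CPM with vehicle, and PDIA4, a protein disulfide isomerase, at 468 and 533 CPM with Nutlin, against 410 and 417 CPM with vehicle. Both were higher in the 2 Nutlin libraries without overlap, which can arise by chance with 2 against 2. Their log2 fold changes of 0.31 (adjusted p = 0.463) and 0.28 (adjusted p = 0.343) did not pass. EDEM1, which passes misfolded glycoproteins to ERAD, stood at 22.1 and 15.7 CPM with Nutlin, against 19.4 and 22.5 CPM with vehicle, and SEL1L, the adaptor of the ERAD ubiquitin ligase HRD1, at 99.0 and 107 CPM with Nutlin, against 93.9 and 101 CPM with vehicle. In EDEM1 and SEL1L the groups overlapped, with log2 fold changes of -0.15 (adjusted p = 0.795) and 0.08 (adjusted p = 0.809). Upper ends of the 95% intervals of HSP90B1, SDF2L1, PDIA4, CRELD2, EDEM1 and SEL1L lay between 0.23 and 0.61, below the lower ends of HERPUD1 (1.69), DNAJB9 (0.94) and XBP1 (0.81). Without Nutlin replicate 1, which leaves 1 Nutlin library, the log2 fold change was 0.37 for PDIA4 and 0.35 for CRELD2.

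Nutlin also raised 3 of 10 members in the presence of 5-Ph-IAA, with 0.388% of all genes called. They were the same 3 genes, and their fold changes compare other libraries than those of the first comparison. Both comparisons took their spread from all groups of the set, so the calls are not independent of each other. The median over the members was 0.24 against 0.001 over all genes. HSP90B1 stood at 1140 and 1230 CPM with the combination, against 970 and 958 CPM with 5-Ph-IAA, without overlap but short of the threshold (0.30, 0.11 to 0.48, adjusted p = 0.335). The 5 others besides HSPA5 had log2 fold changes of 0.02 (CRELD2) to 0.19 (SEL1L). When only these 2 groups set the spread, 3.78% of all genes and 5 of 10 members were called, HSP90B1 with them (0.30, adjusted p = 0.00346) and HSPA5.

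**Figure D2:**
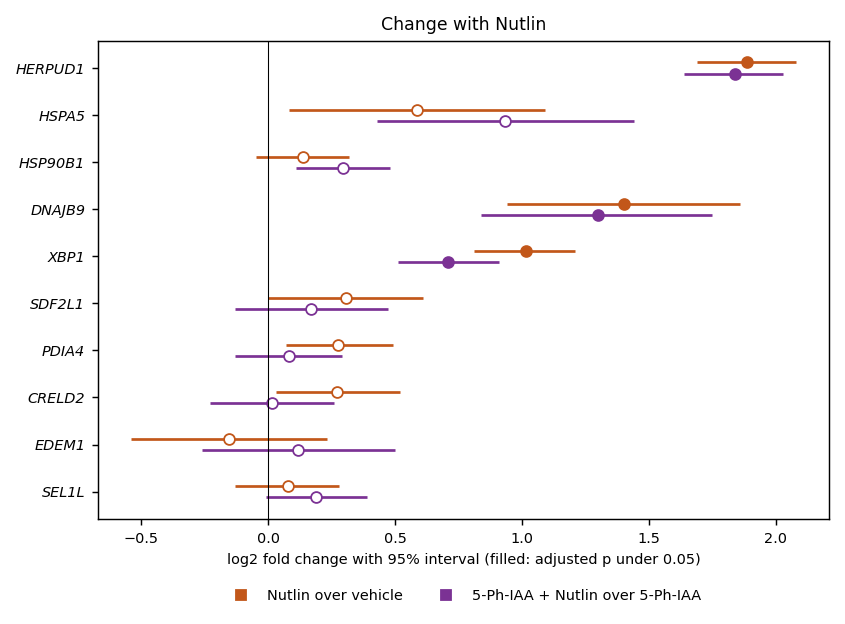
Log2 fold change with its 95% interval for each member, with Nutlin over vehicle (upper line of each pair) and with the combination over 5-Ph-IAA (lower line); filled points passed an adjusted p of 0.05. HERPUD1, DNAJB9 and XBP1 are filled in both, and HSPA5 is open in both with intervals of 0.08 to 1.09 and 0.43 to 1.44.

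Averaged over both arms, Nutlin raised the same 3 of 10 members, with 1.44% of all genes called. HERPUD1 had 1.86 ± 0.062 (adjusted p = 1.82e-07), DNAJB9 1.35 ± 0.15 (adjusted p = 0.00124) and XBP1 0.86 ± 0.063 (adjusted p = 8.31e-05). HSPA5 had 0.76 ± 0.16, just short of the threshold (adjusted p = 0.0525), and was higher in all 4 libraries with Nutlin than in all 4 without it except for Nutlin replicate 2, at 349 CPM. HSPA5 passed with DESeq2 (0.76, adjusted p = 0.0477) and with all 14 libraries in 1 fit (0.76, adjusted p = 0.0236). It also passed without the low-count filter (0.76, adjusted p = 6.88e-20), a fit that called 635 genes against 249 with the filter. Without Nutlin replicate 1 its log2 fold change was 0.49, and without replicate 2 it was 0.96. HSP90B1 (0.22, adjusted p = 0.137) passed with DESeq2 (0.21, adjusted p = 0.0458) and with all 14 libraries (0.22, adjusted p = 0.0236). Its log2 fold change was 0.22 without Nutlin replicate 1 and 0.21 without replicate 2. PDIA4 had 0.18 (adjusted p = 0.275), and 0.23 without Nutlin replicate 1. With all libraries of the set, no member passed the test of a different Nutlin response between cells with and without 5-Ph-IAA. Of all genes 0% passed (0 genes by edgeR, 1 by DESeq2, and 623 at an unadjusted p under 0.05). The largest difference among members was in HSPA5, 0.35 (-0.36 to 1.06, adjusted p = 0.989). Without Nutlin replicate 1 that difference was 0.89, and without replicate 2 it was -0.05, each with 1 library in the Nutlin group. The size of the HSPA5 difference thus turned on which Nutlin library was kept. For XBP1 the difference was -0.31 (-0.59 to -0.03, unadjusted p = 0.0353, adjusted p = 0.989).

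The combination over vehicle, which shares the vehicle libraries with the first comparison, raised 3 of 10 members with 0.325% of all genes called. The log2 fold change was 1.85 for HERPUD1 (adjusted p = 4.64e-06), 1.42 for DNAJB9 (adjusted p = 0.0201) and 0.87 for XBP1 (adjusted p = 0.00178). DNAJB9 lost this call without any 1 of the 4 libraries (1.29 to 1.56), and XBP1 without 3 of them (0.81 to 0.88). HSPA5 (0.96, adjusted p = 0.193) and HSP90B1 (0.27, adjusted p = 0.403) passed when those 2 groups alone set the spread (0.96, adjusted p = 2.83e-07, and 0.28, adjusted p = 0.0261).

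The HERPUD1 count per HSPA5 count gives the balance of the 2 genes within a library, free of library scaling. It was 0.259 and 0.247 with the combination and 0.25 and 0.497 with Nutlin, against 0.128 and 0.142 with 5-Ph-IAA and 0.132 and 0.139 with vehicle. All 4 libraries with Nutlin lay above all 4 without it, and Nutlin replicate 2 lay highest. In the time-course set the ratio was 0.215 and 0.126 with vehicle, 0.190 and 0.175 at 3 h and 0.134 and 0.128 at 12 h, so that the 2 vehicle libraries spanned the treated ones. The wide vehicle spread came with HSPA5, at 149 and 235 CPM, whereas HERPUD1 stood at 32.1 and 29.6 CPM.

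**Figure D3:**
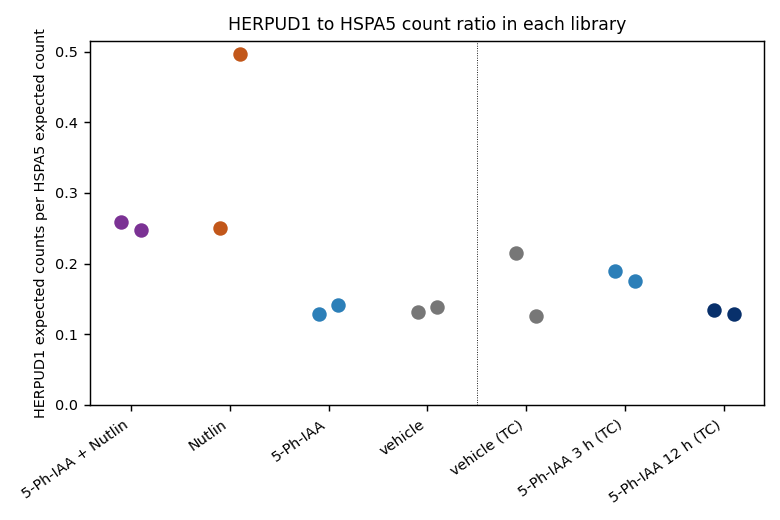
Expected counts of HERPUD1 per expected count of HSPA5 in each library, on a linear axis from 0, with the time-course set (TC) right of the dotted line. The 4 libraries with Nutlin lie at 0.247 to 0.497 and the 4 libraries of that set without Nutlin at 0.128 to 0.142.

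Per transcript length, on the deposited TPM scale, HERPUD1 changed its place among the members. Mean TPM with Nutlin were 277 ± 30.8 for HSP90B1, 129 ± 69.1 for HSPA5, 127 ± 2.7 for PDIA4, 104 ± 14.8 for HERPUD1 and 54.6 ± 6.45 for XBP1 (SD, n = 2). Mean TPM with vehicle were 257 ± 23.6 for HSP90B1, 108 ± 14.9 for PDIA4, 88.3 ± 8.33 for HSPA5, 27.4 ± 3.37 for XBP1 and 24.8 ± 0.021 for HERPUD1. HERPUD1 was within the SD of XBP1 in vehicle libraries. In Nutlin libraries it lay above XBP1 and below PDIA4 without overlap, while the 2 HSPA5 libraries, at 178 and 80.4 TPM, lay on both sides of HERPUD1 and PDIA4. The 5 other members ranked below XBP1 in the Nutlin libraries. SDF2L1 stood at 22.8 ± 1.65 and CRELD2 at 22.4 ± 0.28 TPM, which overlapped. SEL1L stood at 14.2 ± 3.68, DNAJB9 at 10.4 ± 0.15 and EDEM1 at 2.10 ± 0.68 TPM.

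Among 46 other ER genes known as ATF6 or XBP1 targets or ER export and import machinery, Nutlin over vehicle raised 0 and lowered 0 by edgeR, against 0.464% of all genes. At an unadjusted p under 0.05, 8 of 46 were higher and 0 lower, against 1856 of all 17251 genes in either direction. The list's median log2 fold change was 0.09 against -0.003 over all genes, and 38 of 46 were above 0. The highest values were 0.65 for SEC24D, a COPII coat subunit (adjusted p = 0.129), and 0.60 for HSPA13, a microsomal HSP70 (adjusted p = 0.149), and MANF, a secreted ER stress factor, had 0.42 (adjusted p = 0.142). The members of this list with the highest CPM, which is not scaled to length, were the lectin chaperones CANX (0.11) and CALR (0.18) and the disulfide isomerases P4HB (0.17) and TXNDC5 (0.06), none of which passed. In cells given 5-Ph-IAA 0 of 46 passed as well, with a median of 0.12. There 8 were higher at an unadjusted p under 0.05, against 1313 of all 17251 genes in either direction. Averaged over both arms, SEC24D (0.65, adjusted p = 0.0141) and HSPA13 (0.54, adjusted p = 0.0297) passed, against 1.44% of all genes.

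Among 44 ISR target genes, 42 were tested, and Nutlin over vehicle raised 19 and lowered 0, against 0.464% of all genes called. Their median log2 fold change was 0.66, against -0.003 over all genes. In cells given 5-Ph-IAA it raised 19 and lowered 0, against 0.388% of all genes called, with a median of 0.62 against 0.001 over all genes. Of these, 18 genes were called in both. The 6 with the lowest p were DDIT3 (the transcription factor CHOP, 3.34), CHAC1 (4.35), DDIT4 (an mTORC1 inhibitor, 3.30), SLC7A11 (the cystine transporter, 2.08), ATF3 (a stress transcription factor, 2.21) and SESN2 (an mTORC1 inhibitor, 2.17), all with an adjusted p of at most 1.39e-05. ATF4 itself was 2.01-fold higher (1.01, adjusted p = 0.000742). Those with the highest CPM that did not pass were the amino acid transporter SLC38A2 (0.57, adjusted p = 0.103), the folate enzyme MTHFD2 (0.45, adjusted p = 0.125), and the aminoacyl-tRNA synthetases EPRS1 (0.25, adjusted p = 0.342) and NARS1 (0.20, adjusted p = 0.547). The list was drawn up knowing that stress genes rose in these libraries, so its count is not independent evidence of direction. Nutlin stabilises p53, and the part of p53 in the rise of these genes was not tested.

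The absence of ER target calls did not hold in every fit. Leaving out libraries or groups also changes the spread behind the calls, and the part of each was not tested. Without Nutlin replicate 1, 11.6% of all genes passed, and so did 5 of 10 members, 14 of 46 other ER targets upward and 1 downward (SYVN1), and 29 of 42 ISR targets upward. Without Nutlin replicate 2, 6.4% of all genes passed, with 4 of 10 members, 6 other ER targets upward and 1 downward (SSR3), and 29 ISR targets upward. With the combination and 5-Ph-IAA groups alone, 3.78% of all genes passed. So did 7 of 46 other ER targets and 30 of 42 ISR targets, all of these upward. SEC24D and HSPA13 passed in each of these 3 fits. The ER list's median stayed between 0.03 and 0.20 in them, and that of the ISR list between 0.57 and 0.80.

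**Figure D4:**
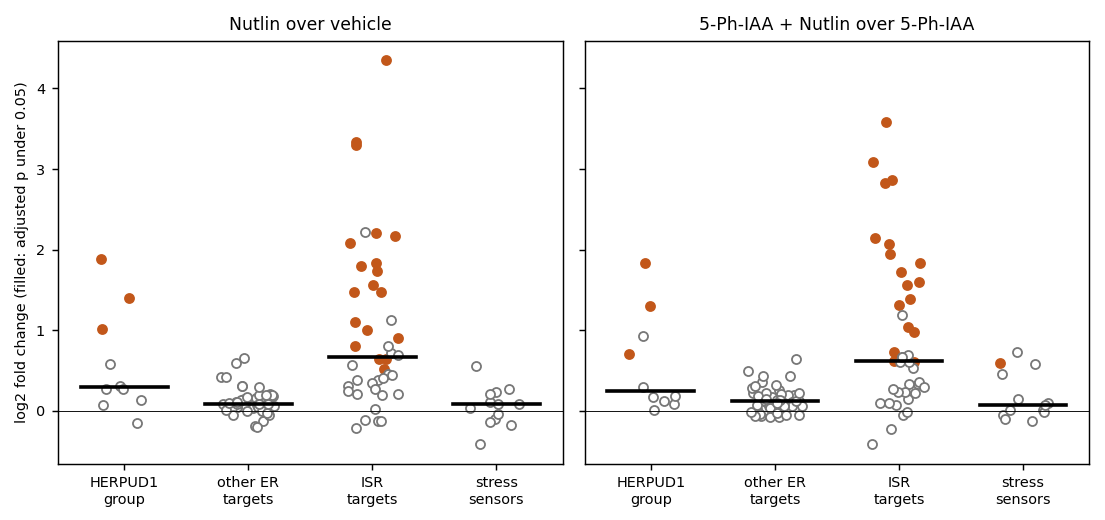
Log2 fold change of each tested gene in 4 lists, with Nutlin over vehicle (left) and with the combination over 5-Ph-IAA (right); filled points passed an adjusted p of 0.05 and black bars are medians. Medians of the other ER targets are 0.09 and 0.12, and those of the ISR targets 0.66 and 0.62.

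Of 13 genes of the stress sensors themselves, 0 passed with Nutlin over vehicle by edgeR, with a median of 0.08. At an unadjusted p under 0.05, 2 were higher and 1 lower, against 1856 of all 17251 genes in either direction. EIF2AK3, which encodes PERK, had 0.56 (adjusted p = 0.0514) without 5-Ph-IAA and was called with it (0.59, adjusted p = 0.044) and averaged over both arms (0.58, adjusted p = 0.00305). It stood at 51.1 and 50.9 CPM with Nutlin, against 34.9 and 34.2 CPM with vehicle, without overlap. ATF6 had 0.10 (adjusted p = 0.739) and ERN1, which encodes IRE1, 0.24 (adjusted p = 0.703). The sensors with the highest CPM that did not pass were EIF2S1, the eIF2alpha subunit (-0.13), MBTPS1, a protease that cleaves ATF6 (0.08), and the eIF2alpha kinases EIF2AK4 (-0.10) and EIF2AK1 (-0.05).

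The 5 genes most like HERPUD1 across the 8 libraries of the Nutlin set, by Pearson correlation of log2 CPM among 12215 genes, were TSC22D3 (0.997), DDIT3 (0.997), CARS1 (0.996), HSD17B7P2 (0.996) and SESN2 (0.995). HSD17B7P2 is a pseudogene whose reads could be shared with its parent. XBP1 ranked 21 (0.982), DNAJB9 60 (0.962), HSP90B1 237 (0.879) and HSPA5 578 (0.773), and EDEM1 was lowest of the members (-0.072). These points share the split into libraries with and without Nutlin, so the correlations restate that difference.

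5-Ph-IAA alone, labelled 3 h in both sets, changed 0 of 10 members by edgeR in either, and 0 had an unadjusted p under 0.05. In the Nutlin set 0% of all genes passed (0 by edgeR, 1 by DESeq2, 245 at an unadjusted p under 0.05), and the members' log2 fold changes ran from -0.04 (CRELD2) to 0.17 (XBP1). In the time-course set 0.0682% of all genes passed, and the members ran from -0.29 (DNAJB9) to 0.15 (PDIA4). HERPUD1 stood at 31.3 and 27.3 CPM at 3 h, against 32.1 and 29.6 CPM with vehicle, and at 45.4 and 47.6 CPM with 5-Ph-IAA, against 45.8 and 46.2 CPM with vehicle, in the Nutlin set. The groups overlapped in both sets, with intervals of -0.33 to 0.19 in the time-course set and -0.18 to 0.21 in the Nutlin set. Without time-course vehicle replicate 1, the log2 fold change of HSPA5 at 3 h was -0.53, and without vehicle replicate 2 it was 0.12. If the 3 h label of the Nutlin set refers to 5-Ph-IAA, the responses of the sets can be set side by side: 0 members and 12 of 18873 genes passed the test of the difference, and the largest among members was in DNAJB9 (-0.40 ± 0.25, time-course minus Nutlin set, adjusted p = 0.826). At 3 h 0 of 46 other ER targets passed in either set. At an unadjusted p under 0.05, 2 were higher in the time course, against 1228 of all 19049 genes in either direction. In the Nutlin set 0 were, against 245 of all 17251 genes.

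At 12 h of 5-Ph-IAA 2 of 10 members fell, DNAJB9 and SEL1L, and 0 rose, against 11.4% of all genes called. This share of the members is near the background. DNAJB9 stood at 12.8 and 13.5 CPM with vehicle, 11.9 and 9.57 CPM at 3 h and 7.05 and 7.67 CPM at 12 h, the last from 211 and 28 expected counts. Both 12 h libraries were below both vehicle libraries (log2 fold change -0.86 ± 0.21, adjusted p = 0.0188). PNPLA8 and THAP5, on the other strand at the same place, fell too (-0.63, adjusted p = 0.0119, and -0.99, adjusted p = 0.00127), and their part in the DNAJB9 count was not tested.

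SEL1L stood at 85.0 and 78.7 CPM with vehicle, 74.1 and 88.5 CPM at 3 h and 52.8 and 63.0 CPM at 12 h. Both 12 h libraries were below both vehicle libraries (-0.53 ± 0.12, adjusted p = 0.013). Per length there was no such gap, at 11.4 and 10.4 TPM at 12 h against 11.4 and 7.03 TPM with vehicle. The effective lengths deposited with these values were 3140 and 4210 bases at 12 h against 4716 and 7549 bases with vehicle, and their part in the count was not tested. Without the deep 12 h replicate 1, which leaves the shallow library as the 12 h group, neither gene passed (DNAJB9 -0.76, adjusted p = 0.185, SEL1L -0.37, adjusted p = 0.226). DNAJB9 also lost its call without vehicle replicate 2 (-0.82, adjusted p = 0.0644).

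HERPUD1 stood at 32.7 and 35.1 CPM at 12 h, against 32.1 and 29.6 CPM with vehicle (0.12, -0.16 to 0.40, adjusted p = 0.634). Both 12 h libraries lay above both vehicle libraries by a small margin in CPM. The gap was wider per length, at 27.2 and 21.2 TPM at 12 h against 16.8 and 16.8 TPM with vehicle, with effective lengths of 815 and 1154 bases at 12 h against 1214 and 1186 bases with vehicle. HSPA5 stood at 149 and 235 CPM with vehicle, 165 and 156 CPM at 3 h and 245 and 274 CPM at 12 h. Both 12 h libraries lay above both vehicle libraries, of which replicate 2 was nearer to them. Its log2 fold change was 0.42 (0.08 to 0.77, adjusted p = 0.107), with 0.79 without vehicle replicate 2 and 0.15 without vehicle replicate 1. It passed without the low-count filter (0.41, adjusted p = 9.08e-05). HSP90B1 stood at 882 and 863 CPM at 12 h, against 778 and 773 CPM with vehicle, without overlap and just short of the threshold (0.17, adjusted p = 0.0557); it passed with RLE factors (0.19, adjusted p = 0.0295) and with DESeq2 (0.20, adjusted p = 0.00184). PDIA4 (0.20, adjusted p = 0.118) passed with DESeq2 (0.22, adjusted p = 0.0223), and its log2 fold change was 0.30 without vehicle replicate 1. The other 4 members had log2 fold changes of -0.29 (EDEM1 and SDF2L1) to 0.09 (CRELD2).

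**Figure D5:**
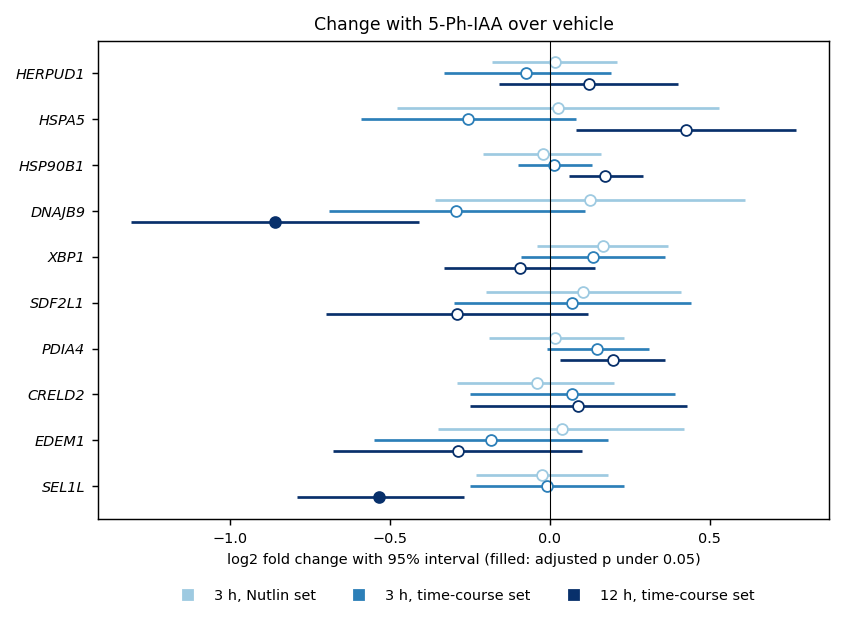
Log2 fold change of each member with 5-Ph-IAA over vehicle and its 95% interval, at 3 h in the Nutlin set (top line of each triplet), at 3 h in the time-course set (middle) and at 12 h in the time-course set (bottom); filled points passed an adjusted p of 0.05. DNAJB9 (-0.86) and SEL1L (-0.53) at 12 h are the filled points.

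The wider lists moved both ways at 12 h, where 645 of all 19049 genes tested rose and 1518 fell (11.4% called). Of 46 other ER targets, 2 rose and 8 fell, with a median log2 fold change of -0.06 against -0.003 over all genes. SYVN1, the ERAD ubiquitin ligase HRD1 that SEL1L serves, rose (0.75, adjusted p = 0.0354), as did SEC31A, a COPII coat subunit (0.34, adjusted p = 0.0291). KDELR3, a receptor that retrieves ER proteins, fell by 0.80 (adjusted p = 0.00837), and SPCS3, a signal peptidase subunit, by 0.71 (adjusted p = 0.000659). The others that fell were SSR3, HM13, HSPA13, DNAJC10, EDEM3 and OSTC, by 0.41 to 0.53. Of 43 ISR targets tested, 3 rose (SLC7A5, SLC7A1 and ATF4) and 4 fell (SLC38A2, CEBPG, XPOT and MTHFD2), with a median of 0.06. Of 13 sensors, EIF2AK3 (-0.65, adjusted p = 0.0282) and MBTPS2, a protease that cleaves ATF6 (-0.79, adjusted p = 0.0294), fell and 0 rose.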

How the data were processed

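Total RNA of HCT116 cells was sequenced from stranded total RNA libraries, per the labels' protocols. The deposited gene tables hold RSEM expected counts, TPM and effective lengths, per the file headers. Expected counts were estimated by the authors per gene and are not scaled; TPM are scaled by the authors to length and depth. STAR 2.7.10b, RSEM, DESeq2 1.48.1 and hg38 (GRCh38) are named in the submitters' processing notes, without their use; the annotation and strand setting are not given in the sources used here. Symbols were found for 61463 of 78686 identifiers (78.1%), and member positions come from GENCODE 29.

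Expected counts were rounded and each set fitted alone with edgeR 4.0.16 (R 4.3.3): filterByExpr (minimum count 10, total 15), TMM, 1 coefficient per group, quasi-likelihood F tests, two-sided, Benjamini-Hochberg over all tested genes (17251 and 19049). The biological coefficient of variation was 0.114 in the Nutlin set and 0.176 in the time-course set, with 4 and 3 residual degrees of freedom. The SE is the log2 fold change divided by the root of F. An exact permutation test of 2 libraries against 2 could not reach 0.05. The procedure was checked on simulated data. Likeness used genes with a mean log2 CPM of at least 1 (prior count 2).

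Members, lists and comparisons were chosen with earlier results of these data known. All members are named everywhere. From each list come up to 6 genes that passed with Nutlin over vehicle, by p, and up to 4 with the highest mean CPM that did not, and elsewhere those that passed; ATF4, ATF6, ERN1, MANF, SEC24D, HSPA13, HYOU1, CREB3L2 and the overlapping genes were named after their values were seen. CBS and NUPR1 did not pass the filter of the Nutlin set. The 95% intervals rest on the spread between 2 libraries per group. Alternatives were DESeq2 1.42.0, RLE factors, no filter, a replicate block, each library left out, the compared groups only and all 14 libraries in 1 fit. Counts and medians of ER and ISR targets under these alternatives were added after seeing the data.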

Additional observations from a re-analysis of the deposited data

How the results depend on the processing

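Among the 80 log2 fold changes of the 10 members in 8 comparisons, 79 kept their direction and side of the threshold with RLE factors, 74 without a low-count filter, 77 with the replicate block, 78 with all 14 libraries in 1 fit and 76 with DESeq2, as did 54 of 60 with the compared groups only. HERPUD1 passed with Nutlin under every one of these settings. SEL1L at 3 h changed sign around 0, at 0.01 without the filter and 0 with the compared groups only. Depth limits the 12 h group most, since 1 of its 2 libraries is shallow.

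Replicate numbers were treated as labels only, since deviations of same-numbered libraries in different groups correlated from -0.203 to 0.086. With the replicate block DNAJB9 with the combination over 5-Ph-IAA did not pass (1.30, adjusted p = 0.0636), 45 genes passed at 3 h of the time course, and 4 members at 12 h, HSPA5 (0.46) and HSP90B1 (0.17) added.

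The number of genes called moved most. Without the low-count filter it was 405 with Nutlin over vehicle, 270 with the combination over 5-Ph-IAA, 635 averaged, 57 for the difference between arms, 53 with 5-Ph-IAA in the Nutlin set, 268 with the combination over vehicle and 193 at 3 h of the time course. With the compared groups only it was 27, 622, 9, 392 and 1391 with Nutlin over vehicle, the combination over 5-Ph-IAA, 5-Ph-IAA in the Nutlin set, the combination over vehicle and 12 h; 5 members passed in both combination comparisons, and over 5-Ph-IAA 7 other ER and 30 ISR targets. With DESeq2 it was 158, 103, 1, 1, 104 and 54 with Nutlin over vehicle, the combination over 5-Ph-IAA, the difference between arms, 5-Ph-IAA in the Nutlin set, the combination over vehicle and 3 h of the time course; 5 members passed averaged and 4 at 12 h. With all 14 libraries 5 members passed averaged, and 88 genes with the combination over vehicle. These causes were not tested.

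Leaving out 1 library at a time gave 25 to 2131 genes and 2 to 5 members with Nutlin over vehicle, 16 to 28 genes and 1 member with the combination over 5-Ph-IAA, 84 to 1977 genes and 3 to 6 members averaged, 0 to 1035 genes and 0 to 1 members for the difference between arms, 0 genes with 5-Ph-IAA in the Nutlin set, 21 to 30 genes and 1 to 2 members with the combination over vehicle, 23 to 283 genes and 0 to 1 members at 3 h of the time course, and 961 to 2446 genes and 0 to 3 members at 12 h. Without 1 Nutlin library 7 to 15 other ER targets and 29 ISR targets passed.

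Signs also changed when 1 library was left out. With Nutlin over vehicle EDEM1 ranged from -0.41 to 0.08, and averaged from -0.15 to 0.10. With the combination over 5-Ph-IAA CRELD2 ranged from -0.06 to 0.09 and EDEM1 from 0.00 to 0.23, and over vehicle CRELD2 from -0.09 to 0.04. The difference between arms ranged from -0.05 to 0.89 for HSPA5 and from -0.35 to 0.17 for DNAJB9. With 5-Ph-IAA in the Nutlin set the ranges were -0.02 to 0.05 for HERPUD1, -0.02 to 0.07 for HSPA5, -0.10 to 0.31 for DNAJB9, -0.02 to 0.25 for SDF2L1, -0.05 to 0.08 for PDIA4, -0.12 to 0.03 for CRELD2, -0.08 to 0.15 for EDEM1 and -0.08 to 0.04 for SEL1L. At 3 h of the time course they were -0.16 to 0.04 for HERPUD1, -0.53 to 0.12 for HSPA5, -0.09 to 0.24 for SDF2L1, -0.13 to 0.34 for CRELD2 and -0.13 to 0.13 for SEL1L, and at 12 h -0.12 to 0.35 for CRELD2.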
